A study of Homo sapiens with 6 samples.

Results

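Cassette exons that sit in a short stretch of their gene were examined in MDA-MB-231-BrM2a cells, which were derived from the human breast cancer line MDA-MB-231 and metastasise to the brain. An event was called compact when its outer span, from the outer end of the upstream exon to the outer end of the downstream exon, was at most 1000 bases. This held for 1552 of 24648 events and for 923 of 7979 genes. The control group was 3 samples of non-clonal cells with the empty vector pRetroX-Tight-Pur. The RBM47 group was 3 samples of 1 single-cell clone (wt#10) that carried Flag-tagged wild-type RBM47, an RNA-binding protein, under a doxycycline-inducible promoter. All 6 samples received doxycycline at 10 ng/ml for 3 days, so an effect of RBM47 cannot be told apart from the clonal origin of the cells. The labels do not say whether the 3 samples of a group were separate cultures, and p-values then measure only the spread between these samples. The level of RBM47 itself was not analysed here.

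A cassette exon is included in some transcripts of its gene and skipped in others. In short introns the splicing machinery is thought to recognise the 2 ends of an intron as a pair, whereas in long introns splice sites are first paired across the exon. Short introns are known to be common in GC-rich genes. The inclusion rate of an event is the fraction of transcripts with the exon, computed in each sample from junction reads. Reads on the 2 junctions of the exon are divided by the sum of these reads and 2 times the skipping reads. Reads were deposited as sums over the 3 samples of a group, and the depth of single samples is therefore unknown.

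Exons were looked up in the GENCODE annotation of GRCh37. An event was matched only when no other event had the same outer ends and its gene had a single fitting exon. A fitting exon was an annotated exon whose neighbours spanned the same number of bases. A match was found for 635 of the 1552 compact events (40.9%). In these the exon had a median length of 96 bases, and the median upstream and downstream introns were 178 and 164 bases. Short introns follow from the limit on the span and are no check of it. Among the other events 36.3% were matched, so a comparison of exon sequence between compact and other events is void because fewer than 80% had a matched exon. The coding exons of 6 events that passed the study criteria described below are shown, together with the exon of HMGN1, the compact event of shortest span. Exon bases are in capitals and the 20 intron bases on each side in lower case, 5′ to 3′ on the gene's strand.
HMGN1 (chr21:40720348-40720377, minus strand, 30 bases): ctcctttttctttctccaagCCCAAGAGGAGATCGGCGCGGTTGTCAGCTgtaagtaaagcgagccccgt
DYRK1B (chr19:40317592-40317627, minus strand, 36 bases): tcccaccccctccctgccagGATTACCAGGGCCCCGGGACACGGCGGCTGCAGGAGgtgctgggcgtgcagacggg
TNFSF12-TNFSF13 (chr17:7463163-7463210, plus strand, 48 bases): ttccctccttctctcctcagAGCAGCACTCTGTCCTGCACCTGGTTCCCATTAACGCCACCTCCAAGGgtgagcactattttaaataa
HPS4 (chr22:26862017-26862070, minus strand, 54 bases): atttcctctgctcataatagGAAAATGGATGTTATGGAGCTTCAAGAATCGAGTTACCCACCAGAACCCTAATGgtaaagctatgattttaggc
RELL2 (chr5:141018522-141018588, plus strand, 67 bases): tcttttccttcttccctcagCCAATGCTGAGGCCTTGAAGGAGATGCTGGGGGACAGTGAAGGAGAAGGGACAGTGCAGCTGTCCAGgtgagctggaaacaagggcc
SPINT1 (chr15:41146595-41146720, plus strand, 126 bases): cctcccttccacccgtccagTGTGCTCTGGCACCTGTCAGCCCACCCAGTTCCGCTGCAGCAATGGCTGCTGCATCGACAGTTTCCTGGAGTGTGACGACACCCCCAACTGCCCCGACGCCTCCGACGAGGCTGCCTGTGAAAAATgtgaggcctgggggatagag
RAPGEF3 (chr12:48134425-48134606, minus strand, 182 bases): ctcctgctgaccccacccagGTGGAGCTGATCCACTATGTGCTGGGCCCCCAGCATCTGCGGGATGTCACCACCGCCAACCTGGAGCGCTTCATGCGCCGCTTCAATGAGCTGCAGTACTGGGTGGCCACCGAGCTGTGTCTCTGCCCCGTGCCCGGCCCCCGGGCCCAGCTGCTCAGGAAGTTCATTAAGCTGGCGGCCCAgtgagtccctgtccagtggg
The positions are those of the matched exon on GRCh37. The exons of HMGN1, DYRK1B, TNFSF12-TNFSF13, HPS4 and SPINT1 have a length that is a multiple of 3, whereas those of RELL2 and RAPGEF3 do not. In DYRK1B the upstream and downstream introns were 297 and 84 bases, in RELL2 94 and 442 bases, and in HPS4 121 and 499 bases. In SPINT1 they were 310 and 116 bases, and in TNFSF12-TNFSF13 143 and 155 bases.

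Spans of compact events ran from 286 to 999 bases, with a median of 769 bases against 6324 bases for the other events. The 1552 events lay in 1179 regions. There were 296 regions with more than 1 event, 23 regions were listed under more than 1 gene name, and 1 region held 6 events. In 277 of the 296 shared regions all events had the same skipping reads, so such events share data and are not independent. A single compact event was found in 581 genes, and 73 genes held 4 or more. The most were in HDAC10, a histone deacetylase gene, with 9 events.

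A pair of features bears on all values. In RBM47 replicate 2, 13.5% of the rates of compact events of intermediate inclusion (a mean over all 6 samples between 0.1 and 0.9) were exactly 0 or 1, while the other 5 samples had 4.70% to 7.84%. Rates and averages were not aligned in every row of the table, and 31 of 1552 compact events (2.0%) had to be re-matched to their rates by the printed averages, against 5.89% of the other events. Of the 31, 21 were matched by both group averages and 10 by the RBM47 average alone. All 10 of the latter are among the 12 events that passed the study criteria, as were all 253 events of this kind in the whole table, and their part in these calls was not tested. The control rate from summed reads, which did not enter the matching, lay nearer to the matched control mean than to the printed one in 7 of the 10.

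Taken over all genes, compact exons were included at a higher level than the others. Across events, the median control inclusion rate was 0.964 for compact events and 0.931 for the others, and the lower quartiles were 0.809 and 0.251. Only 179 compact events (11.5%) had a control rate under 0.1, against 20.6% of the other events, and 1045 (67.3%) had a rate above 0.9, against 55.0%. With at least 30 reads in each group (1498 compact and 21408 other events), the median rate in single samples was 0.969 to 0.972 in control and 0.971 to 0.981 in RBM47 cells for compact events. For the other events it was 0.939 to 0.940 in control and 0.936 to 0.951 in RBM47 cells. The gap between compact and other events was 0.0315 ± 0.00196 (SD over 6 samples), and it was above 0 in 6 of 6 samples (exact two-sided sign-flip permutation test over samples, p = 0.0312, the smallest that 6 samples allow). Rates between 0.1 and 0.9 made up 19.96% to 21.96% of compact and 22.9% to 24.5% of other events, a gap of -2.82 percentage points ± 0.730 (SD over 6 samples, exact sign-flip permutation test, p = 0.0312). The 81 events with a span of at most 500 bases did not show the second gap, with a value of 1.48 percentage points (exact sign-flip permutation test, p = 0.625). The 6 samples are all of 1 cell line, and the test addresses these samples only.

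The difference in level was not seen inside genes that hold both kinds of event. In 642 such genes the compact minus other difference in median control rate had a median of 0 and quartiles of -0.140 and 0.123, and it was above 0 in 310 genes and below 0 in 311. The GC content of the gene also moved with span. Its median was 53.9% for compact events (1537 with a value) and 43.6% for the others (22977 with a value). Events were divided by gene GC content into 5 classes of equal size. In the class with the highest GC content, 7.13% of 968 compact events had a control rate under 0.1, against 18.4% of 3933 other events. In the class with the lowest GC content the values were 28.8% of 59 compact and 24.1% of 4845 other events. In the class next to it they were 33.9% of 59 compact and 21.8% of 4843 other events. The median control rate was lower for compact than for other events in the lowest class (0.777 against 0.911). The same held in the class next to it and in the middle class (0.925 against 0.940). Compact events had the higher median in the class after the middle (0.974 against 0.935) and in the highest class (0.968 against 0.933).

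Among compact events, the ribosomal protein, proteasome, and tubulin and kinesin lists were close to full inclusion, and the other lists were lower. RPS21, a protein of the small ribosomal subunit, had the most reads (81137), and its rates were 0.982, 0.978 and 0.980 in control and 0.984, 0.982 and 0.979 in RBM47 cells. Among ribosomal proteins the list held 31 compact events in 15 genes, with a median control rate of 0.980 against 0.917 for the 126 other events of the list. The proteasome list held 22 events in 8 genes with a median of 0.995, and the tubulin and kinesin list 13 events in 10 genes with a median of 0.999. The mitochondrial ribosome list held 9 compact events in 4 genes with a median control rate of 0.305, against 0.949 for the 121 other events of the list. Medians were 0.829 for splicing regulators, 0.946 for translation factors and 0.947 for the respiratory chain. They were 0.927 for MAP kinases and 0.635 for zinc fingers, against 0.964 over all compact events. In PSMD2, a subunit of the proteasome cap, an event had control rates of 0.996, 0.997 and 0.997 and RBM47 rates of 0.992, 0.994 and 0.994, which do not overlap although the difference was only -0.00374. A few deeply read compact exons were almost always skipped. In EIF3M, a subunit of a translation initiation factor, the rates were 0.00147 to 0.00441 in control and 0.00316 to 0.00568 in RBM47 cells. In NDUFS6, a subunit of respiratory complex I, the rates were 0.00256 to 0.00419 in control and 0 to 0.00207 in RBM47 cells. Over all compact events 0.773% passed the study criteria, so lists of this size hold too few events to show a difference. None of the events in the ribosomal protein, translation factor, splicing regulator, respiratory chain, mitochondrial ribosome, proteasome, tubulin and kinesin, zinc finger or MAP kinase lists did so. These lists held 31, 7, 15, 4, 9, 22, 13, 19 and 14 compact events, and no compact event was found for integrins and laminins. The ADAM protease list held 3 compact events, all of ADAM15, of which 1 passed.

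No shift of compact events as a whole was detected between RBM47 and control cells. The mean of the sample medians was 0.971 ± 0.00133 in control and 0.974 ± 0.00571 in RBM47 cells (SD, n = 3 each), a difference of 0.00385 (exact two-sided permutation test over samples, p = 0.400, with 0.1 the smallest that 3 against 3 allow). The difference was 0.000571 without RBM47 replicate 2. It was 0.00459 with at least 100 reads in each group and 0.00309 as a mean over events. Both of these reached the smallest possible value (exact permutation test, p = 0.1 each), so a small shift is not excluded. Over single events the median difference was 0, with quartiles of -0.00674 and 0.0124, against quartiles of -0.0119 and 0.0113 in the other events.

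Under the study criteria an event needed 10 reads or more, an unadjusted Fisher's exact p of 0.05 or less on summed reads, and mean inclusion rates that differ by 0.2 or more. Matched rates took the place of the printed averages. The counts over all events (152 higher and 196 lower) are therefore not those of the paper. The criteria were met by 12 compact events in 11 genes. Inclusion was higher in RBM47 cells in 7 (0.451% of compact events, against 0.617% of all events tested) and lower in 5 (0.322%, against 0.796% of all events). In both directions the share among compact events was below that of all events. Rows matched by the RBM47 average alone all passed, and they were 10 of 1552 compact and 243 of 23096 other events. Their part in the lower share was not tested. These 12 events had 88 to 489 reads, with a median of 190.5, against a median of 1104 reads for all compact events. In 5 of the 12, control and RBM47 samples were separate. The difference from summed reads had the same direction in 12 of 12 and reached 0.2 in 8.

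**Figure D1:**
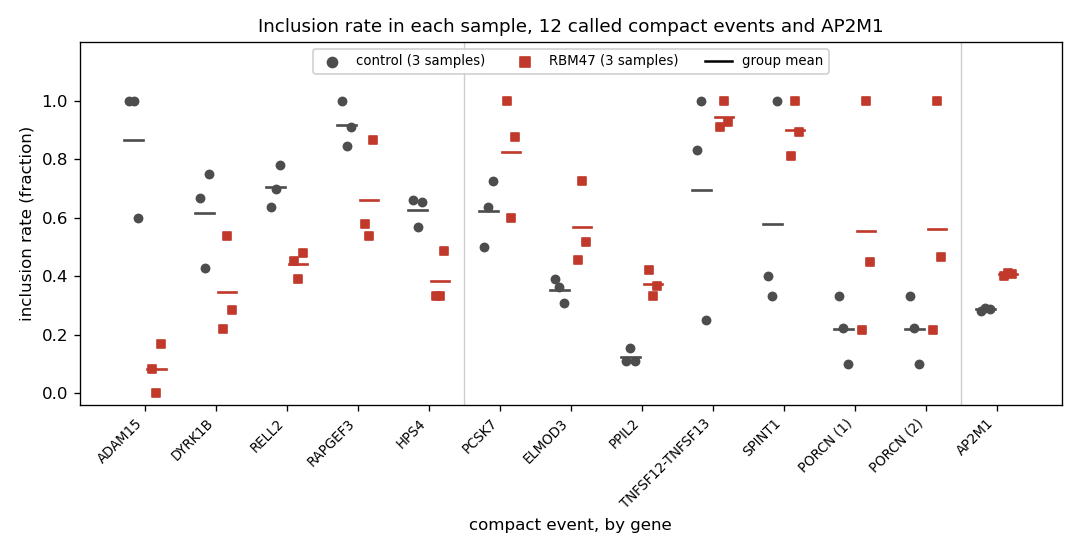
Inclusion rate (fraction, vertical axis) in each of the 3 control (circles) and 3 RBM47 samples (squares) for the 12 compact events past the study criteria and for AP2M1, by gene, with group means as lines. Control and RBM47 samples are separate in ADAM15, RELL2, HPS4, ELMOD3, PPIL2 and AP2M1, and both PORCN events have 1 RBM47 sample at 1.

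The 5 events with lower inclusion were in genes of several kinds. RELL2, a membrane protein related to the TNF receptor family member RELT, had rates of 0.638, 0.697 and 0.782 in control and 0.451, 0.391 and 0.478 in RBM47 cells. Its 3 RBM47 samples were below all control samples, the difference was -0.27 (mean 0.706 ± 0.0722 against 0.440 ± 0.0441, SD, n = 3 each), and Fisher's exact test gave p = 3.15e-05. The summed reads were 132 including and 28 skipping in control and 137 including and 81 skipping in RBM47 cells, a difference of -0.24. The row was matched by the RBM47 average alone, and the averages printed in the table gave the opposite direction (0.10).
HPS4, a subunit of a complex needed for lysosome-related organelles, had rates of 0.660, 0.568 and 0.652 in control and 0.333, 0.333 and 0.487 in RBM47 cells. Its groups were again separate, with a difference of -0.24 and a Fisher's exact p of 0.000262, although the summed reads gave -0.19. DYRK1B, a protein kinase, had rates of 0.667, 0.429 and 0.750 in control and 0.217, 0.538 and 0.286 in RBM47 cells on only 98 reads. Here 1 RBM47 sample lay above the lowest control sample. The row was matched by the RBM47 average alone, and the printed averages gave a difference of -0.15, short of the criterion. RAPGEF3, an exchange factor for Rap GTPases that is activated by cyclic AMP, had rates of 1, 0.846 and 0.909 in control and 0.579, 0.538 and 0.867 in RBM47 cells. It was called on 2 skipping reads in control and 8 in RBM47 cells, and its difference of -0.26 became -0.20, just short of the criterion, without RBM47 replicate 2.

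ADAM15, a membrane-anchored metalloproteinase, gave the largest difference among compact events, but its rates and its reads did not match. An event with an outer span of 952 bases had rates of 1, 1 and 0.6 in control and 0.0833, 0 and 0.167 in RBM47 cells, a difference of -0.78. Its summed reads were 141 including and 2 skipping in control and 302 including and 32 skipping in RBM47 cells, which give rates of 0.972 and 0.825 and a difference of -0.15. The 2 other ADAM15 events of the same region shared these skipping reads and were aligned as deposited. Their mean rates were 0.975 and 0.962 in control and 0.865 and 0.799 in RBM47 cells, and neither passed the study criteria. In the second of them the samples were at 1, 1 and 0.886 in control and at 0.820, 0.741 and 0.836 with RBM47. All 3 events had lower rates in every RBM47 sample than in any control sample.

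Of the 7 events with higher inclusion, PPIL2 had the tightest samples. PPIL2 is a protein of the cyclophilin family. Its rates were 0.108, 0.154 and 0.111 in control and 0.422, 0.333 and 0.365 in RBM47 cells. Every RBM47 sample lay above every control sample, the difference was 0.25 (0.124 ± 0.0256 against 0.374 ± 0.0450, SD, n = 3 each) and Fisher's exact test gave p = 5.88e-11. There were 166 skipping and 69 including reads in control and 101 skipping and 145 including reads in RBM47 cells, which also give a difference of 0.25. The row was matched by the RBM47 average alone, and the averages printed in the table gave the opposite direction (-0.61). A second PPIL2 event of the same region shared the skipping reads and had rates of 0.0677, 0.102 and 0.0625 in control and 0.271, 0.1 and 0.264 in RBM47 cells. Its groups overlapped through RBM47 replicate 2, and its difference of 0.13 missed the criterion. ELMOD3, a GTPase-activating protein for ARL-type GTPases, had rates of 0.390, 0.362 and 0.307 in control and 0.457, 0.727 and 0.518 in RBM47 cells. Its groups did not overlap, and the difference of 0.21 (Fisher's exact p = 0.00766) was 0.13 without RBM47 replicate 2 and 0.19 without control replicate 3. Summed reads gave 0.17, under the criterion, and the printed averages of this re-matched row gave the opposite direction (-0.43).

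The remaining 5 events rested on few reads and their groups overlapped. PORCN, the enzyme that attaches a fatty acid to Wnt proteins, was listed with a pair of events of the same region, whose control rates were 0.333, 0.222 and 0.1. Their RBM47 rates were 0.214, 1 and 0.448 in 1 event and 0.214, 1 and 0.467 in the other. The differences of 0.34 and 0.34 were 0.11 and 0.12 without RBM47 replicate 2, and the printed averages gave -0.23 and 0.14. SPINT1, an inhibitor of the membrane serine protease matriptase, had rates of 0.400, 0.333 and 1 in control and 0.810, 1 and 0.895 in RBM47 cells on 88 reads. The read-through locus TNFSF12-TNFSF13, which joins 2 genes for TNF family ligands, had rates of 0.833, 1 and 0.250 in control and 0.909, 1 and 0.929 in RBM47 cells. Its difference of 0.25 was 0.029 without control replicate 3. PCSK7, a proprotein convertase, had rates of 0.5, 0.636 and 0.727 in control and 1, 0.6 and 0.875 in RBM47 cells, and its difference of 0.20 fell under the criterion when control replicate 1, RBM47 replicate 1 or RBM47 replicate 3 was left out. Without RBM47 replicate 2 there were 4 events with higher inclusion instead of 7, and PORCN and ELMOD3 were lost. Leaving out a sample changed the mean rates only, as the summed reads and the Fisher p still held it. Without the events that were matched by the RBM47 average alone, 1 event with higher inclusion (PCSK7) and 1 with lower inclusion (RAPGEF3) remained.

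A test that uses the spread between samples was run with limma on the 5989 events of intermediate inclusion, of which 319 were compact. Of the 319, 1 event was higher in RBM47 cells (PPIL2, adjusted p = 0.0418) and 1 was lower (the ADAM15 event with the low RBM47 rates, adjusted p = 0.0187) when calls were limited to adjusted p-values under 0.05 with differences of 0.2 or more. Each is 0.313% of the compact events tested, against 0.751% of all tested events that were higher and 0.785% that were lower. Both rows were matched by the RBM47 average alone, and with rows aligned as deposited only the counts were 0 higher and 0 lower. For this ADAM15 event the summed reads gave a difference of -0.15. An unadjusted limma p under 0.05 was found for 42 compact events (13.2%), against 12.0% of all events tested. RELL2 and HPS4 had adjusted p-values of 0.124 and 0.145 in limma. When each sample was left out in turn, the limma adjusted p ranged from 0.0632 to 0.177 for PPIL2 and from 0.00499 to 0.0896 for ADAM15. Over those 6 fits it stayed under 0.05 in 0 for PPIL2 and in 2 for ADAM15. With the replicate block the adjusted p was 0.120 for PPIL2 and 0.0527 for ADAM15.

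AP2M1, the medium subunit of the clathrin adaptor AP-2, had the lowest limma p among compact events with a difference under 0.2, and was chosen after its values were seen. This event, 3:185380650-185381465 in the table's own coordinates (build not stated), had rates of 0.281, 0.292 and 0.287 in control and 0.399, 0.412 and 0.408 in RBM47 cells. Its groups were far apart relative to their spread (0.287 ± 0.00547 against 0.406 ± 0.00660, SD, n = 3 each), and the difference was 0.12 both from the samples and from summed reads. It rested on 6065 reads in a row aligned as deposited, with 1438 including and 1767 skipping reads in control and 1660 including and 1200 skipping reads in RBM47 cells. The limma adjusted p was 0.0233 and lay between 0.0632 and 0.108 when 1 sample was left out. It was 0.0646 with the replicate block, 0.131 with rows aligned as deposited only and 0.315 without the variance trend. With aligned rows only, the unadjusted limma p was 0.000379, against 0.000327 in the main fit. In the remaining alternatives (other transformations, all mean rates, at least 30 reads in each group) the limma adjusted p was 0.00692 to 0.0470. With 3 candidate exons of the annotation between the same outer ends, no single exon could be assigned and no sequence is shown. Another AP2M1 event, 3:185381566-185382528, was at 0.994 in control and 0.992 in RBM47 cells.

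No large change was found among deeply read compact events. Of compact events of intermediate inclusion with at least 500 reads, 0 of 165 passed the study criteria, which allows a share of up to 1.82%, against 90 of 2460 other events (3.66%). At 1000 reads or more the counts were 0 of 104 compact and 46 of 1365 other events (3.37%), and the largest compact difference was 0.163. The events share reads, so the limit covers counting error only, and the minimums of 500 and 1000 reads were chosen with the data in view. Of the same 165 events, 32 had an unadjusted limma p under 0.05 and 1 (AP2M1) had an adjusted p under 0.05. With no read limit beyond 10, 12 of 319 compact (3.76%) and 336 of 5670 other events (5.93%) passed. The part of re-matched rows in these shares was not tested.

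**Figure D2:**
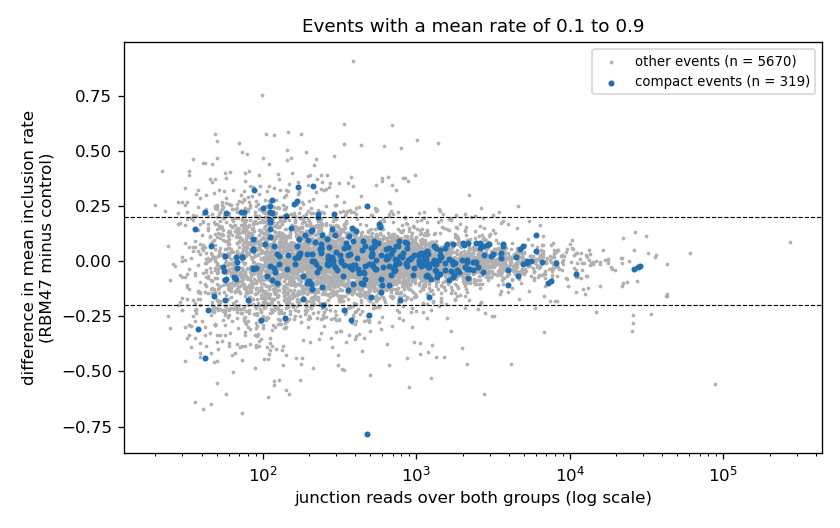
Difference in mean inclusion rate (RBM47 minus control, vertical axis) against junction reads over both groups (log scale) for 319 compact (blue) and 5670 other events (grey) with a mean rate of 0.1 to 0.9. Dashed lines mark a difference of 0.2 in either direction, and no compact event with 500 reads or more lies beyond them.

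Small separations between the groups were found at a share near that of the other events. Control and RBM47 rates did not overlap in 162 of the 1552 compact events (10.4%), against 9.96% of all events. With 3 against 3 samples, unchanged rates without ties would be separate with a probability of 0.1. Among events of intermediate inclusion with at least 1000 reads, this held for 33 of 104 compact (31.7%) and 383 of 1365 other events (28.1%). The 33 events were in 25 genes, 21 were higher and 12 lower in RBM47 cells, and the median absolute difference was 0.0713. The following examples are taken from the 33 and were chosen after their values were seen. Apart from AP2M1 their limma adjusted p-values were 0.104 or more.

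In TMX2, a thioredoxin-related membrane protein, the rates were 0.798, 0.796 and 0.797 in control and 0.897, 0.851 and 0.875 in RBM47 cells (difference 0.08, limma adjusted p = 0.117). The read-through locus TMX2-CTNND1 listed the same region with the same skipping reads. In G6PC3, a glucose-6-phosphatase, the rates were 0.829, 0.879 and 0.878 in control and 0.912, 0.936 and 0.95 in RBM47 cells (limma adjusted p = 0.157). In PRPF4B, a kinase associated with the spliceosome, they were 0.822, 0.862 and 0.826 in control and 0.914, 0.929 and 0.896 in RBM47 cells (limma adjusted p = 0.184). All 3 genes had higher inclusion in each RBM47 sample than in any control sample.
TPM2, which encodes beta-tropomyosin of actin filaments, held compact events of opposite direction in overlapping regions. An event of 608 bases had rates of 0.910, 0.888 and 0.883 in control and 0.852, 0.768 and 0.829 in RBM47 cells, and an event of 652 bases had rates of 0.684, 0.738 and 0.696 in control and 0.786, 0.779 and 0.783 in RBM47 cells. Groups were separate in both, with differences of -0.08 and 0.08 and limma adjusted p-values of 0.237 and 0.294. In SHC1, an adaptor of receptor tyrosine kinases, the rates were 0.681, 0.731 and 0.669 in control and 0.810, 0.740 and 0.775 in RBM47 cells (limma adjusted p = 0.296). In SCRIB, a scaffold protein of cell polarity, an exon of low inclusion had rates of 0.146, 0.214 and 0.112 in control and 0.0857, 0.0863 and 0.0540 in RBM47 cells (limma adjusted p = 0.283).

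The compact events of intermediate rate with the most reads and no call came from 3 loci. The non-coding gene C17orf76-AS1 was listed with the small nucleolar RNAs SNORD49A and SNORD49B over the same region, as 3 events with 26103, 27935 and 28676 reads. The rates of the C17orf76-AS1 event were 0.321, 0.270 and 0.294 in control and 0.255, 0.241 and 0.278 in RBM47 cells, which overlap (difference -0.04, limma adjusted p = 0.557). RNF181, a ubiquitin ligase, had rates of 0.809, 0.819 and 0.843 in control and 0.793, 0.708 and 0.787 in RBM47 cells on 10937 reads (difference -0.06, limma adjusted p = 0.385). Its RBM47 samples were all below its control samples, and Fisher's exact test gave p = 4.42e-06. COMMD4 had rates of 0.851, 0.891 and 0.859 in control and 0.851, 0.863 and 0.858 in RBM47 cells on 8145 reads (difference -0.01, limma adjusted p = 0.868). Fisher's exact test gave p = 7.14e-15 for C17orf76-AS1 while the limma p did not pass. Fisher's test on summed reads does not use the spread between samples.

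Compact events also had more reads than the others. The median was 1104 reads (quartiles 412.5 and 2821) against 642 reads for the other events. The summed reads of compact events were as many in RBM47 as in control cells, with a ratio of 1.01, whereas the other events had a ratio of 0.901. The median of the log2 ratio of RBM47 to control reads was 0.03 for compact and -0.25 for other events, and 53.2% of compact and 30.7% of other events had more reads in RBM47 cells. Only 1 sum per group was deposited, so the difference between groups has no replicate check. For either ratio taken alone, fewer molecules cannot be told apart from a lower sequencing depth. The cause of the contrast between compact and other events was not tested.

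The read ratio changed along the whole range of spans. Its median log2 value was 0.11 at spans of at most 500 bases, 0.05 at 501 to 750 bases and -0.01 at 751 to 1000 bases, and -0.07, -0.19, -0.26 and -0.37 in the 4 classes above 1000 bases. The share of events with a control rate under 0.1 was 4.94% of 81 events, 8.66% of 635 and 14.4% of 836 in the 3 compact classes, and 19.4% to 21.5% in the longer classes. The share past the study criteria was 0%, 0.630% and 0.957% in the compact classes, 1.06% at 1001 to 2000 bases and 1.44% to 1.61% beyond. Re-matched rows were also more frequent at longer spans. They made up 1.23%, 1.73% and 2.27% in the compact classes, 4.88% at 1001 to 2000 bases and 5.22% to 6.61% beyond. Their part in the share past the criteria was not tested. With 81 events in the shortest class, 0 calls allow a share of up to 3.70%.

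**Figure D3:**
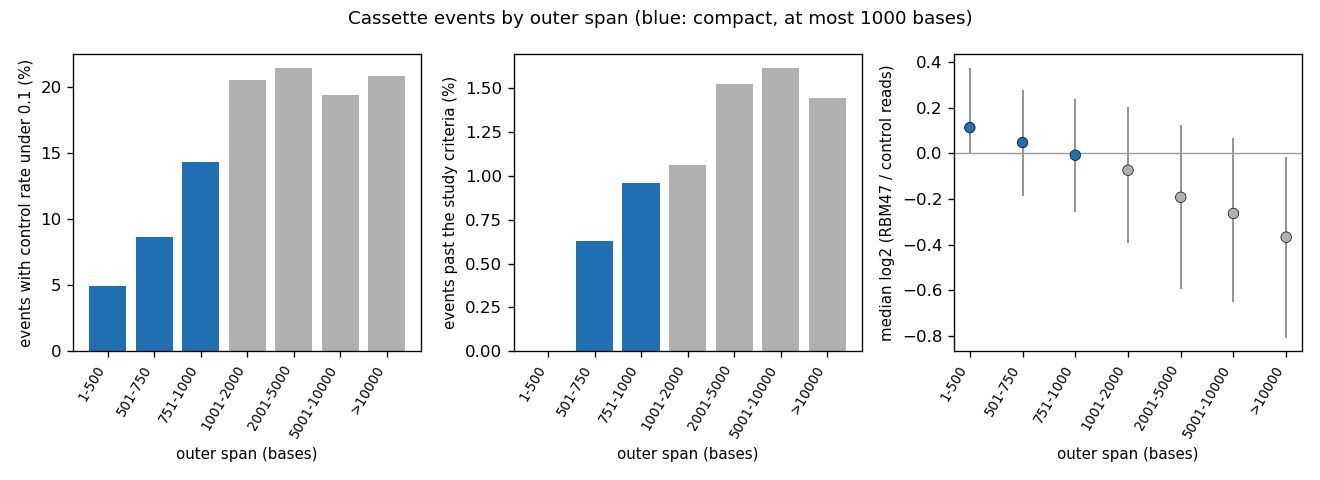
Events in 7 classes of outer span (bases), with compact classes in blue. Bars show the percentage with a control inclusion rate under 0.1 (left) and past the study criteria (centre), and points show the median log2 ratio of RBM47 to control reads with quartiles (right), which goes from 0.11 in the shortest to -0.37 in the longest class. The share of re-matched rows, not drawn, was 1.23% in the shortest and 6.31% in the longest class.

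GC content of the gene moved with the read ratio in both kinds of event. From the lowest to the highest class of gene GC content, the median log2 ratio of other events was -0.60, -0.44, -0.26, -0.07 and 0.02, and that of compact events was -0.56, -0.38, -0.20, -0.02 and 0.08. Of the compact events 63.0% lay in the highest class, against 17.1% of the others. In the 642 genes with both kinds of event, the log2 ratio of compact minus other events had a median of 0.00 (0.00364), with quartiles of -0.14 and 0.15. The part of GC content in the read ratio was not tested.

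**Figure D4:**
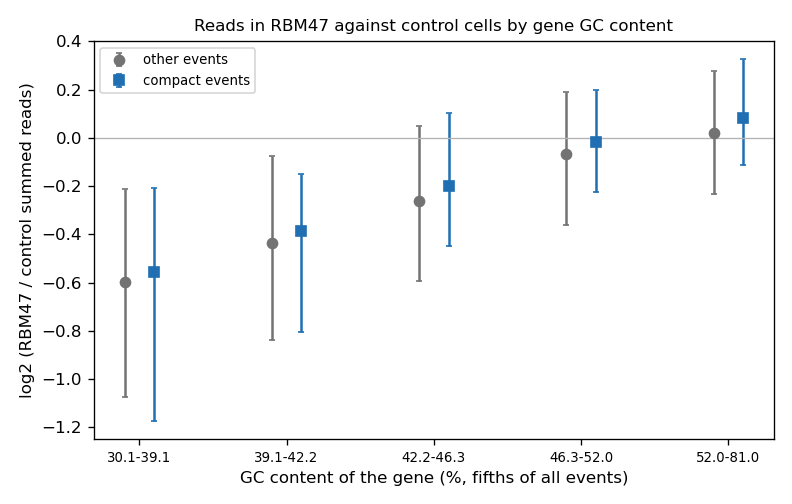
Median log2 ratio of RBM47 to control summed reads, with quartiles, for compact (blue) and other events (grey) in 5 classes of gene GC content (percent). Both rise from about -0.6 in the lowest to above 0 in the highest class, and compact events lie slightly above the others in each.

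At the limit of 1000 bases, the last events inside were those of EIF4A1, a translation initiation helicase, listed also under SNORA48 and SENP3-EIF4A1, with a span of 999 bases and a control rate of 0.995 to 0.996. Among the first events outside were those of L1CAM with 1001 bases and GTF2F1 with 1002 bases. L1CAM, a neural adhesion molecule, had rates of 0.781, 0.777 and 0.807 in control and 0.948, 0.873 and 0.773 in RBM47 cells. GTF2F1, a general transcription factor subunit, had rates of 0, 0.00493 and 0.000732 in control and 0.172, 0.190 and 0.162 in RBM47 cells. At the short end, HMGN1, a nucleosome-binding protein, had an event of 286 bases with rates of 0.981, 0.941 and 0.974 in control and of 0.964, 1 and 0.977 in RBM47 cells. A pair of SSBP4 events of 325 bases followed, with rates of 0.971 to 1 in all 6 samples.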

How the data were processed

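RNA-seq reads of poly(A)-selected libraries had been mapped to cassette exon junctions by the authors, following an earlier study. TopHat is named in the submitters' processing notes, and the build of the table's coordinates is not given in the sources used here. The authors deposited inclusion rates per sample as a fraction, group averages, read counts summed per group, and differences, odds ratios and p-values of their own comparison. Their odds ratios and p-values were not used, and their differences served only as an alternative for named events. Of 24725 rows, 77 exact repeats were dropped. Where rates did not average to the printed averages within 3e-09, they were re-matched by both averages, or by the RBM47 average alone, and 17 events had no rates. Including totals may hold reads beyond those in the rates. Fisher's exact test used scipy 1.17.1. limma 3.58.1 was fitted to arcsine square root rates with a trend on log2 reads and Benjamini-Hochberg adjustment over 5989 events. On simulated data it recovered 196 of 200 changes with 2 false calls, over compact and other events together. Recovery for compact events alone, or at the reads and differences of the called ones, was not tested. Replicate numbers did not pair the samples (r of deviations -0.0220, -0.00344 and 0.0142). Members, gene lists and the form of the limma test were chosen with earlier results of these data known. Named events were all compact events past either test, the 5 with most reads and no call, the 3 shortest and those at the span limit (1 of which is not reported here), with up to 4 per gene list by reads. GENCODE v44 on GRCh37 gave exons and gene GC content. Alternatives were other read minimums, transformations, span limits, row sets and left-out samples.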

Additional observations from a re-analysis of the deposited data

How the results depend on the processing

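The count of compact events past the study criteria, 7 higher and 5 lower, was 2 higher with adjusted Fisher p-values. It was 16 and 16 at a minimum difference of 0.1, and 3 and 1 at 0.3. With rates from summed reads 3 were lower. With rows aligned as deposited only it was 1 and 1, and also 1 and 1 without events matched by the RBM47 average alone, an alternative chosen after seeing the data. Span limits of 500 and 2000 bases gave 0 and 0, and 25 and 20, over fewer and more events. When 1 sample was left out, 4 to 7 events were higher, the lowest without RBM47 replicate 2. Only the mean rates changed there, because the reads are group sums and the Fisher p still held the left-out sample.

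The limma count was 1 higher and 1 lower. It was 0 and 0 with log2 odds and 0.01 added, and with aligned rows only. None was lower with all mean rates (0) or without the variance trend (0), 2 were lower on untransformed rates, and 2 were higher with no minimum difference. The span limits gave 0 and 0, and 10 and 4. With 1 sample left out, the counts were 0 to 1 and 0 to 2. With the replicate block the counts were 0 and 0, against 69 instead of 92 calls over all events, and the replicate numbers share no more than a number. Apart from changes in the number of events, samples or rows used, the cause was not tested.

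The gap in median rate was 0.0309 to 0.0319 and the gap in the share of intermediate rates -2.92 to -2.55 percentage points when 1 sample was left out, where 5 samples cannot give p below 0.0625. The latter was 1.48 for spans of at most 500 bases. The printed averages reversed the differences of 4 events, to -0.23 in PORCN, -0.61 in PPIL2, -0.43 in ELMOD3 and 0.10 in RELL2. In COMMD4 the difference ran from -0.02 (-0.0175) to 0.00 (0.00256) when 1 sample was left out. Of the other values of named events under alternatives, 163 kept their direction and side of the threshold and 19 kept their direction but no longer passed. The missing depth per sample limits what single rates can show.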
